A study of Mus musculus with 8 samples.

Results

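Alpha and beta tubulin are the proteins that microtubules are built from. Array probes were taken as tubulin probes if their RefSeq accession belonged to 1 of 10 mouse genes, the beta isotypes Tubb2a, Tubb2b, Tubb4b, Tubb5 and Tubb6 and the alpha isotypes Tuba1a, Tuba1b, Tuba1c, Tuba4a and Tuba8, and if they were well above background on at least 4 of 8 arrays. The probes were thus selected on their signal over background, without regard to group, and the family itself was proposed with furan results of these arrays in view, so its counts are a description. This gave 12 probes for 10 genes, among 33848 kept probes of 55681 on the array. All 12 passed the filter, 11 of them on all 8 arrays, and 0 probes passed through 1 group alone. The RNA was from livers, snap frozen when fresh, of female mice of the hybrid strain B6C3F1, bought at an age of 5 to 6 weeks. The furan group, replicates 41, 42, 43 and 44, received furan in corn oil by gavage at 8 mg per kg body weight for 21 days. The vehicle group, replicates 2, 3, 4 and 6, received corn oil by the same route. Both groups were killed 4 hours after their final gavage, and each RNA was hybridised to 1 array of 1 slide. Furan is a small volatile compound formed in heated food that is toxic and carcinogenic to rodent liver.

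Tubulin works as a heterodimer of 1 alpha and 1 beta chain, and the isotypes are encoded by separate genes whose coding sequences are much alike and whose proteins differ mostly in their acidic C-terminal tails. The newly made chains are folded by prefoldin, the cytosolic chaperonin CCT and the tubulin cofactors. Free tubulin dimers lead to decay of tubulin mRNA on the ribosome, through the factor TTC5, so that cells adjust tubulin mRNA to the soluble pool. In hepatocytes microtubules carry secretory vesicles and membrane proteins bound for the bile canaliculus, and during division they form the spindle.

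The share of the 59305 probe spots with a signal well above background was 86.2% for vehicle replicate 2 and 55.1% to 69.4% for the other 7 arrays. A level is given here as the log2 signal minus the array's own 75th percentile, and changes are furan minus vehicle on the log2 scale. Levels of different probes are not set against each other, because probes bind their targets unequally. All 8 hepatocyte markers looked for, among them Alb and Ttr, were well above background on all 8 arrays. The log2 of their summed signal, in which the brightest probes weigh most, was 12.28 to 12.47 on furan arrays and 12.24 to 12.64 on vehicle arrays. In whole liver, fewer cells of a type and less RNA per cell cannot be told apart.

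Furan livers were set against vehicle livers to ask which tubulin isotypes differ after repeated exposure. Of the 12 probes, 7 rose, for 6 of the 10 genes, and 0 fell (limma, adjusted p under 0.05 over all 33848 kept probes). The beta genes that rose were Tubb2a at 5.18-fold, Tubb4b at 2.27-fold and Tubb6 at 2.27-fold, and the alpha genes were Tuba1c at 2.28-fold, Tuba4a at 1.71-fold and Tuba1b at 1.59-fold and 1.94-fold with its 2 probes. Among all kept probes 2.26% passed upward and 1.07% downward, 3.33% in either direction. These were 765 higher and 361 lower probes, against 77 and 1 when arrays were centred on their median and 188 and 25 with unscaled signals. The median change over all kept probes was -0.12, and 0.37 with the median centring. The 4 genes without a probe past the threshold were Tubb2b, Tubb5, Tuba1a and Tuba8. The groups did not overlap for the same 7 probes, all higher on furan arrays, where 9.97% of all kept probes were free of overlap in that direction. Each slide column held 1 furan and 1 vehicle array, and each of the 7 probes was higher on the furan array in all 4 columns. With the slide column as a block, limma called 0 of the 12 probes and 0 of all 33848, of which 5945 had an unadjusted p under 0.05, against 7655 without the block. The count of 7 was 7 without vehicle replicate 2, 6 without vehicle replicate 4, 4 without vehicle replicate 3, vehicle replicate 6, furan replicate 41 or furan replicate 42, and 3 without furan replicate 43 or 44.

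**Figure D1:**
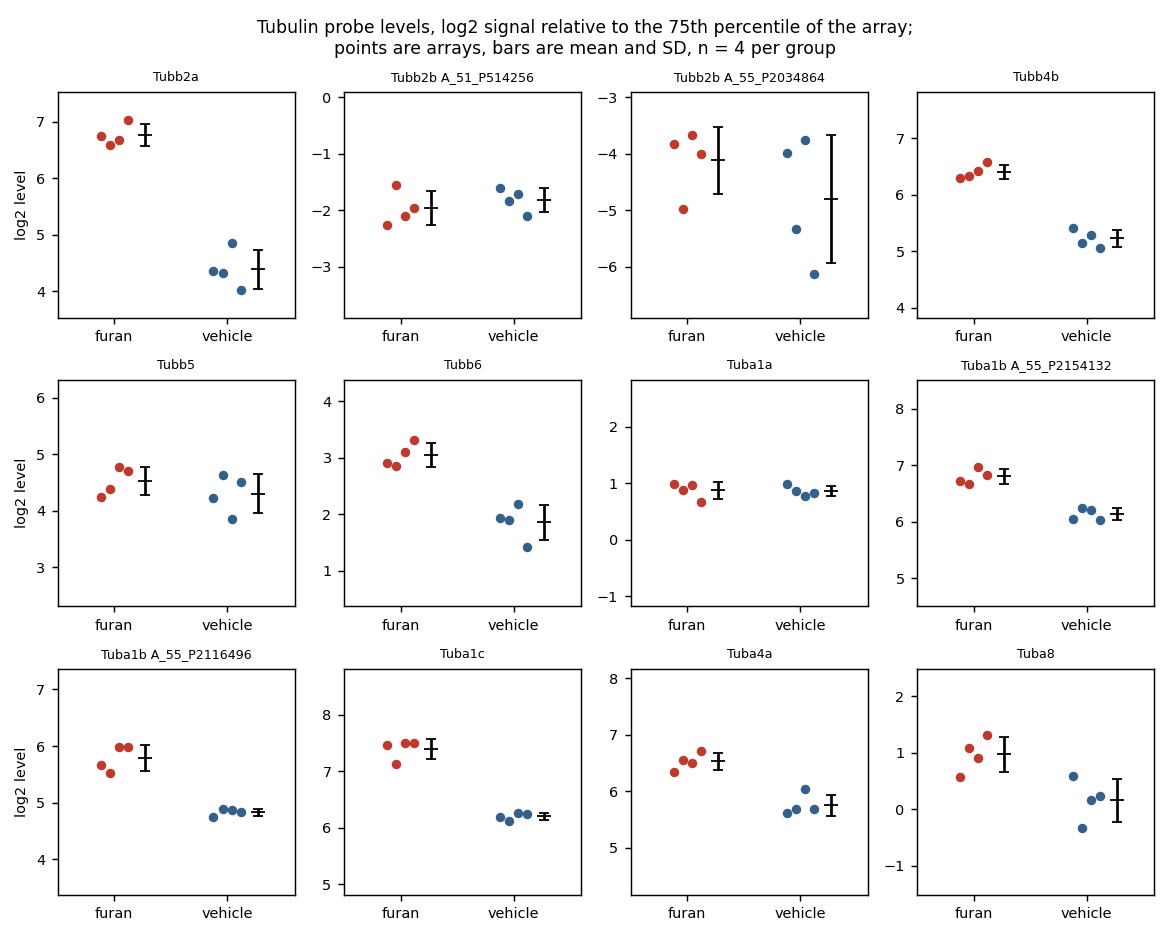
Log2 level of each of the 12 tubulin probes on the 4 furan arrays (red, left) and the 4 vehicle arrays (blue, right), with the mean and SD of each group; every panel spans the same log2 range around its own values. For 7 probes the furan points lie wholly above the vehicle points, and for Tubb2b, Tubb5, Tuba1a and Tuba8 they overlap.

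**Figure D2:**
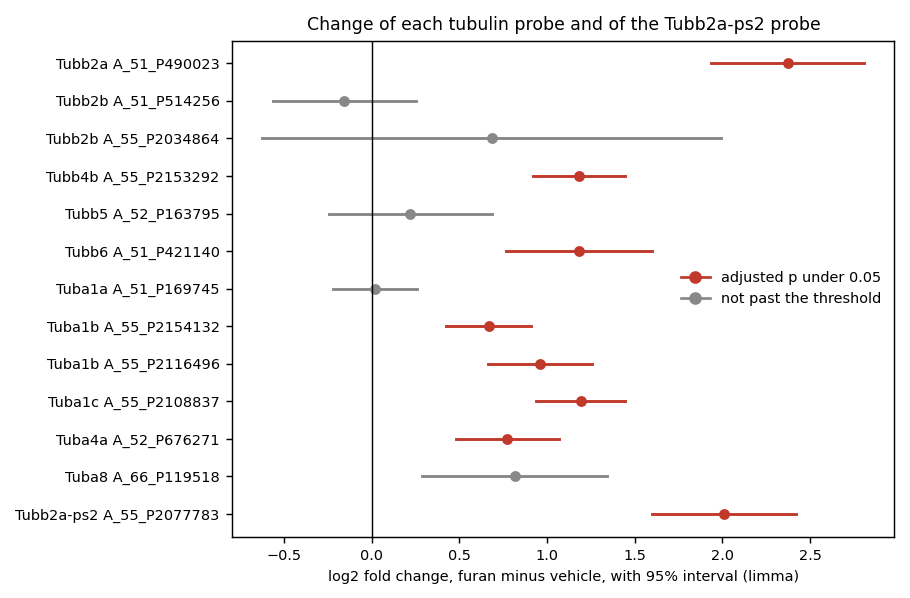
Log2 fold change, furan minus vehicle, of each tubulin probe and of the Tubb2a-ps2 pseudogene probe, with the 95% interval from limma; red marks an adjusted p under 0.05. Tubb2a stands at 2.37, and the other 6 tubulin probes past the threshold lie between 0.67 and 1.19.

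Tubb2a, a beta isotype that neurons also use in quantity, had levels of 6.75, 6.59, 6.68 and 7.04 on the arrays of furan replicates 41, 42, 43 and 44. On the arrays of vehicle replicates 2, 3, 4 and 6 they were 4.36, 4.33, 4.86 and 4.03. All furan values exceeded the highest vehicle value, that of replicate 4. The means were 6.77 ± 0.19 for furan and 4.39 ± 0.35 for vehicle (SD, n = 4 each), a change of 2.37 ± 0.19 (SE, limma adjusted p = 0.00428). This call held in each of the 8 fits without 1 array, at 2.25 to 2.53. With the slide column as a block the change had an SE of 0.11 and an adjusted p of 0.0943.

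The promoter windows of 4 tubulin genes are shown, from RefSeq on build GRCm38.p6, for the 3 genes with the smallest adjusted p, Tubb2a, Tubb4b and Tuba1c, and for Tuba1a, whose level hardly differed between the groups. Each runs from 250 bases before the annotated start to 50 bases after it, in the direction of the gene, and capitals mark the CCAAT box (CCAAT, or ATTGG on the other strand) and the TATA box (TATAAA).
Tubb2a promoter window, GRCm38.p6 chr13:34077959-34078258, minus strand: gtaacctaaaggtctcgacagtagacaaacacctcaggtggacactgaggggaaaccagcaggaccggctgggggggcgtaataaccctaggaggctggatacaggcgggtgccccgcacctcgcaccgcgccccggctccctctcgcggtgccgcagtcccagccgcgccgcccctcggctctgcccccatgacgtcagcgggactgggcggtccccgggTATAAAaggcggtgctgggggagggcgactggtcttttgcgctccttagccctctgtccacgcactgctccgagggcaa
Tubb4b promoter window, GRCm38.p6 chr2:25224653-25224952, minus strand: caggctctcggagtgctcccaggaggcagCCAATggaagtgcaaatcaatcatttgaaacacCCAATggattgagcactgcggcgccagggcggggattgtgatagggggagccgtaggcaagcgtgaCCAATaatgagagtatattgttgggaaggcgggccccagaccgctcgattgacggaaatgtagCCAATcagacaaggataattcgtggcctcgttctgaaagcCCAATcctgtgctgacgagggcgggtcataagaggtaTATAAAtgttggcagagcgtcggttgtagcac
Tuba1c promoter window, GRCm38.p6 chr15:99029641-99029940, plus strand: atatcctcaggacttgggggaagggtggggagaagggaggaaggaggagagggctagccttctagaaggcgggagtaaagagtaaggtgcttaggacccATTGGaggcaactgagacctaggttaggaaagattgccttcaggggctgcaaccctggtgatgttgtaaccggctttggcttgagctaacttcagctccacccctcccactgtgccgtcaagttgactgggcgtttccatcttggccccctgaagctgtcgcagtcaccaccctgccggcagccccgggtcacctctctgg
Tuba1a promoter window, GRCm38.p6 chr15:98953452-98953751, minus strand: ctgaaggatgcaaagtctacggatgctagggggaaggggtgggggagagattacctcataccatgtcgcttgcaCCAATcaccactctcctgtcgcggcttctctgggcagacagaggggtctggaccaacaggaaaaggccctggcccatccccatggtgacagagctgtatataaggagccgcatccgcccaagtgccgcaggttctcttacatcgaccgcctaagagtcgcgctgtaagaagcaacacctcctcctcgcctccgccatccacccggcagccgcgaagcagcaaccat

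RefSeq promoter windows were used for 8 of the 10 genes, all but Tubb2b and Tubb6. Both strands were searched for 7 motifs. CCAAT was in 4 of the 8 windows, against 37.4% of all 32544 windows of this length, with 5 matches in Tubb4b, 2 in Tubb5, and 1 in each of Tuba1a and Tuba1c. The Tubb2a window had no CCAAT and a TATAAA at 29 to 24 bases before the start. TATAAA was in 2 windows, those of Tubb2a and Tubb4b, against 13.6% of all windows. In Tubb4b it lay after the annotated start, at bases 19 to 24 counted from the start as base 1. The GC box GGGCGG was in 6 windows against 35.9%, and the antioxidant response core TGACNNNGC in 2, Tuba1a and Tuba1c, against 12.4%. TTTGAA, the cell cycle homology region, was in the Tubb4b window alone, against 17.8% of all windows. The AP-1 site TGANTCA and the heat shock element GAANNTTC were in 0 of the 8 windows, against 7.79% and 7.89% of all windows. The longer form TGACGTCA was not among the motifs searched. It is in the Tubb2a window shown above, and its share over all windows was not counted. A match is a description of the letters in these windows.

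Tubb4b, a beta isotype of most tissues that also builds cilia, had levels of 6.30, 6.32, 6.42 and 6.58 on the furan arrays 41 to 44. The vehicle arrays 2, 3, 4 and 6 gave 5.41, 5.14, 5.28 and 5.06. All furan arrays lay above all vehicle arrays, with a mean of 6.41 ± 0.13 for furan and 5.22 ± 0.16 for vehicle (SD, n = 4 each). The change was 1.18 ± 0.11 (SE, limma adjusted p = 0.00649), and it passed in all 8 fits without 1 array, at 1.12 to 1.24. It did not pass with a median shift, at 1.67 (adjusted p = 0.0879).

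Tubb6, a beta isotype with a more divergent sequence, had levels of 2.91, 2.85, 3.11 and 3.32 on the furan arrays 41 to 44, against 1.94, 1.90, 2.18 and 1.43 on the vehicle arrays 2, 3, 4 and 6. The lowest value was that of vehicle replicate 6. The change was 1.18 ± 0.18 (SE, limma adjusted p = 0.0216). This call ended when vehicle replicate 3 was left out (limma adjusted p = 0.0570) and when furan replicate 41 (0.0654), 42 (0.0535), 43 (0.0765) or 44 (0.0637) was, with the change at 1.04 to 1.29 over the 8 fits. It also ended with a median shift (0.127), without a shift (0.0723) and without the filter on dim probes (0.0921).

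Tubb5, a beta isotype of most dividing and resting cells, had levels of 4.24, 4.39, 4.77 and 4.70 on the furan arrays and 4.23, 4.63, 3.85 and 4.51 on the vehicle arrays. The groups overlapped, and the change was 0.22 ± 0.20 (SE, limma adjusted p = 0.492) with a 95% interval of -0.24 to 0.68. That interval holds 0 and upward changes as well, so the arrays do not show that Tubb5 stayed the same.

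Tubb2b, whose gene neighbours Tubb2a on chromosome 13 and whose protein is nearly the same, had 2 kept probes. Probe A_51_P514256 gave levels of -2.25, -1.55, -2.10 and -1.96 on the furan arrays and -1.60, -1.83, -1.71 and -2.09 on the vehicle arrays. Its change was -0.16 ± 0.18 (SE, limma adjusted p = 0.575), with a 95% interval of -0.56 to 0.25, and the groups overlapped. The sign turned under other scalings, to 0.20 by quantile normalization and 0.33 with a median shift. Probe A_55_P2034864 was well above background on 3 furan and 2 vehicle arrays, at levels of -4.98 to -3.67 on furan arrays and -6.13 to -3.75 on vehicle arrays. Its change of 0.68 ± 0.56 (adjusted p = 0.452) had a 95% interval of -0.62 to 1.99, so it bounds the Tubb2b level only loosely.

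Among the alpha genes, Tuba1c, an isotype of most tissues, had levels of 7.45, 7.12, 7.49 and 7.50 on the furan arrays 41 to 44 and of 6.19, 6.12, 6.26 and 6.23 on the vehicle arrays 2, 3, 4 and 6. Furan replicate 42 lay below the other 3 furan arrays and above all vehicle arrays. The means were 7.39 ± 0.18 for furan and 6.20 ± 0.06 for vehicle (SD, n = 4 each), and the change of 1.19 ± 0.11 (SE, limma adjusted p = 0.00580) passed in all 8 fits without 1 array, at 1.16 to 1.28. It did not pass with a median shift, at 1.68 (adjusted p = 0.110).

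Tuba1b, the alpha isotype that most cultured cells make in bulk, had 2 probes, and both rose. Probe A_55_P2154132 gave 6.73, 6.67, 6.97 and 6.84 on the furan arrays and 6.05, 6.25, 6.22 and 6.03 on the vehicle arrays. Its change was 0.67 ± 0.10 (SE) at a limma adjusted p of 0.0231. Probe A_55_P2116496 gave 5.66, 5.53, 5.99 and 5.99 on the furan arrays and 4.75, 4.89, 4.86 and 4.83 on the vehicle arrays, and its change was 0.96 ± 0.13 (adjusted p = 0.0150). The log2 difference of the second probe from the first was -1.15 to -0.85 on furan arrays and -1.36 to -1.20 on vehicle arrays, so the second probe gained more by 0.29, with no overlap between the groups. The first call held only without vehicle replicate 2. Leaving out furan replicate 41, 42, 43 or 44 gave a limma adjusted p of 0.0686, 0.0537, 0.0739 or 0.0693, and leaving out vehicle replicate 3, 4 or 6 gave 0.0516, 0.0603 or 0.0669. The call of the second probe ended without vehicle replicate 6 (limma adjusted p = 0.0540) and without furan replicates 43 and 44 (0.0559 and 0.0511). Neither passed with a median shift (0.451 and 0.237), without a shift (0.0742 and 0.0552) or without the filter (0.109 and 0.0725).

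Tuba4a, an alpha isotype encoded without the C-terminal tyrosine of most others, had levels of 6.35, 6.55, 6.50 and 6.72 on the furan arrays and 5.62, 5.69, 6.03 and 5.68 on the vehicle arrays. Vehicle replicate 4 was the highest vehicle array and still lay below all furan arrays. The change was 0.77 ± 0.13 (SE, limma adjusted p = 0.0262), at 0.71 to 0.87 over the 8 fits without 1 array. The call held without vehicle replicates 2 and 4, but not when furan replicate 41, 42, 43 or 44 was left out (limma adjusted p = 0.0631, 0.0780, 0.0808 or 0.0723) or when vehicle replicate 3 or 6 was (0.0676 or 0.0731). It also ended under quantile normalization (0.0617), with a median shift (0.398), without a shift (0.0850) and without the filter (0.112).

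Tuba8, a divergent alpha isotype, had levels of 0.58, 1.09, 0.91 and 1.32 on the furan arrays and 0.59, -0.34, 0.16 and 0.23 on the vehicle arrays. Furan replicate 41 lay just below vehicle replicate 2, and the other 3 furan arrays lay above all vehicle arrays. The change of 0.82 ± 0.23 (SE) did not pass (limma adjusted p = 0.0931), except with array weights (0.0369) and with trend and robust (0.0416).

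Tuba1a, the alpha isotype of developing neurons, lies on chromosome 15 beside Tuba1b and Tuba1c. Its levels were 0.98, 0.88, 0.98 and 0.67 on the furan arrays and 0.98, 0.87, 0.77 and 0.83 on the vehicle arrays. The change was 0.02 ± 0.10 (SE, limma adjusted p = 0.926), and its 95% interval of -0.22 to 0.26 lies below the intervals of Tuba1b, 0.43 to 0.91 and 0.66 to 1.26, and of Tuba1c, 0.94 to 1.44. The difference between these changes was not tested. The sign of the Tuba1a change turned under quantile normalization, at -0.05.

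The make-up of the tubulin signal was described as the share of each gene in the summed signal of the 10 genes, each by its brightest kept probe. Because probes bind unequally, a share is compared only with the share of the same gene in the other group, and since shares sum to a whole a higher share of 1 gene lowers others. No test was made. The summed signal was 9.09 to 9.38 on furan arrays and 8.08 to 8.26 on vehicle arrays on the log2 scale, a ratio of 2.12. The sum over the 5 beta genes was 2.71 times higher with furan, and that over the 5 alpha genes 1.87 times higher. Beta probes gave 37.5% ± 1.5 of the total on furan arrays and 29.2% ± 1.4 on vehicle arrays (SD, n = 4 each), without overlap. This mean gain was 8.22 percentage points, and that of Tubb2a alone was 10.6. The share of the other beta genes together was thus not higher with furan.

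The share of Tubb2a was 18.6%, 17.7%, 16.4% and 19.7% on furan arrays 41 to 44 and 7.39%, 7.06%, 9.49% and 6.03% on vehicle arrays 2, 3, 4 and 6. Tubb2a was the only gene of the 10 whose share was higher on all furan arrays than on any vehicle array. Among the beta genes alone it gave 48.3% ± 2.3 of the signal with furan and 25.7% ± 5.2 with vehicle (SD, n = 4 each). The Tubb5 share was 3.84% ± 0.45 with furan and 7.15% ± 1.84 with vehicle, and the Tuba1b share 18.6% ± 1.3 with furan and 24.8% ± 1.4 with vehicle. Tuba4a gave 15.4% ± 1.4 with furan and 19.1% ± 1.6 with vehicle. The mean Tuba1a share was 0.308% with furan and 0.641% with vehicle, and the mean Tubb2b share 0.0436% with furan and 0.101% with vehicle. By the brightest probe of each gene, all 5 of these shares were lower on every furan array than on any vehicle array. For Tuba1b that was probe A_55_P2154132, whose change of 0.67 was below the 0.96 of its other probe. The Tuba1b share by that other probe alone was not computed, so its lack of overlap holds for the brightest probe only. For Tubb4b, Tubb6, Tuba1c and Tuba8 the shares overlapped. Within the alpha genes the Tuba1c share was 44.7% ± 2.8 with furan and 36.6% ± 2.0 with vehicle, without overlap. Within the beta genes the Tubb4b share was lower on every furan array, although its level rose. It was 37.6% ± 1.2 with furan and 45.1% ± 3.2 with vehicle.

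**Figure D3:**
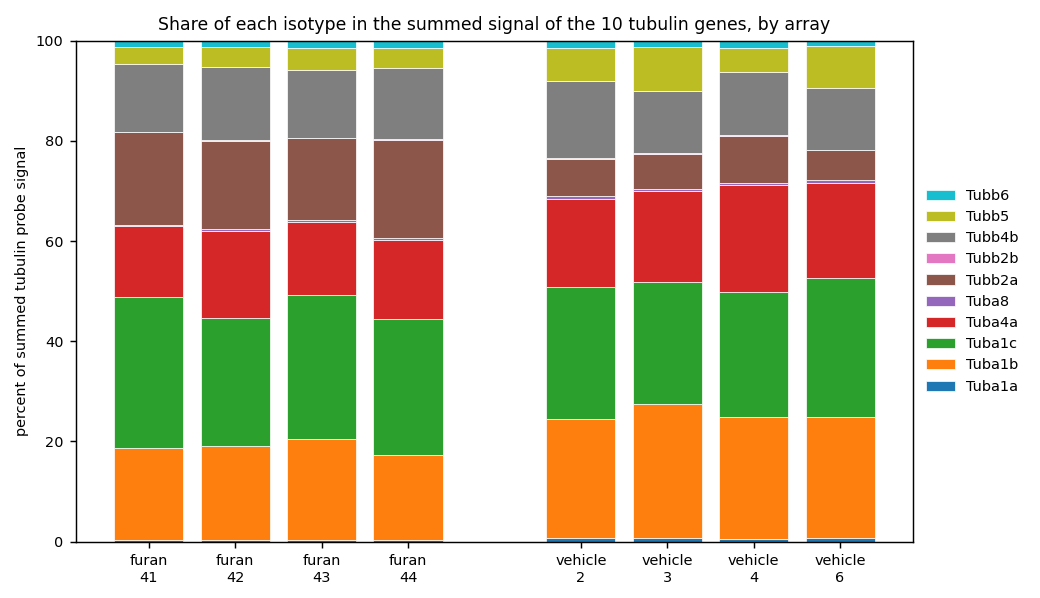
Share, in percent, of each of the 10 tubulin genes in their summed probe signal on each array, furan arrays left and vehicle arrays right. The Tubb2a band covers 16.4% to 19.7% on furan arrays and 6.03% to 9.49% on vehicle arrays; band heights of different genes also reflect how well each probe binds.

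The within-array log2 difference of Tubb2a from each other member shows the same inequality without any scaling between arrays. It did not overlap between the groups for any of the 9 other genes. Against Tubb4b it was 0.26 to 0.46 on furan arrays and -1.06 to -0.42 on vehicle arrays, and against Tubb6 it was 3.57 to 3.84 on furan arrays and 2.42 to 2.69 on vehicle arrays. The mean gain of Tubb2a over the other genes ranged from 1.18 against Tuba1c to 2.53 against Tubb2b. Tubb2a had the largest change of the members, so the upward direction of these mean gains followed from the changes given above. No test was made of these differences.

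Cross-hybridisation between paralogues bears on every value above, since the coding sequences are alike. Probe sequences were not used here, so how many tubulin transcripts each probe can bind was not tested. The pseudogene Tubb2a-ps2, on chromosome 12, has a probe of its own. Its levels were 2.20, 2.11, 2.31 and 2.67 on the furan arrays and 0.54, 0.22, 0.53 and -0.04 on the vehicle arrays. The pseudogene probe rose by 2.01 ± 0.18 (SE) at a limma adjusted p of 0.00550. The log2 difference of Tubb2a from it was 4.37 to 4.55 on furan arrays and 3.82 to 4.33 on vehicle arrays. How much of the signal on that probe came from Tubb2a RNA was not tested. Of the 2 Tubb2b probes, A_51_P514256 had an interval that ended at 0.25, below the Tubb2a interval of 1.94 to 2.81, and the dim probe A_55_P2034864 had one that ended at 1.99, just inside it. The Tuba1a probe likewise had an interval below those of its neighbours Tuba1b and Tuba1c.

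Profiles most like that of Tubb2a were ranked by the root mean square difference over the 8 arrays, after each profile was centred on its own mean, among 15010 other genes with a symbol. The nearest was Tubb2a-ps2 at 0.23 log2 units. Next came the death receptor gene Tnfrsf10b at 0.32, with a change of 2.45 ± 0.22, and Jun, which encodes a protein of the AP-1 dimer, at 0.33, with 2.19 ± 0.18 (SE). The progesterone-metabolising reductase gene Akr1c18 stood at 0.37 with 2.05 ± 0.19, and the stress-induced transcription factor gene Atf3 at 0.39 with 2.69 ± 0.32. All 5 had furan values above all vehicle values, as Tubb2a did. The choice of profiles like that of Tubb2a made this likely, so it is no further result on these genes.

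Of 10 further tubulin genes on the array, 8 had a kept probe, 0 passed in either direction (1 at an unadjusted p under 0.05, which 25.5% of the 15070 genes with a symbol reached), and their median change was -0.20 against -0.01 for the 15070 genes with a symbol. Tubg1, the gamma-tubulin that nucleates microtubules at the centrosome, had a change of 0.26 ± 0.11 (limma adjusted p = 0.223), and the centriolar epsilon-tubulin gene Tube1 one of -0.56 ± 0.22 (adjusted p = 0.189). The Tube1 value was -0.10 by quantile normalization, -0.11 with normexp, -0.18 in the authors' value table and -0.07 with a median shift. That of Tubg1 was 0.75 with a median shift and 0.17 with normexp. Tubb3 and Tubal3 were not kept. The 10 members had a median of 0.79 by their brightest probes, with 6 higher and 0 lower. By this 1 probe per gene, 2.40% of all 24921 genes or transcripts passed upward and 1.08% downward.

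Among the chaperones that fold tubulin, of 17 kept CCT and prefoldin genes, 1 rose and 0 fell, with a median change of 0.29. Over all genes or transcripts 2.40% passed upward. At an unadjusted p under 0.05 there were 9 of these 17 genes, against 25.5% of all genes with a symbol, and 15 of the 17 had a change above 0. The CCT subunit gene Cct5 had levels of 5.95, 5.76, 6.09 and 5.79 on the furan arrays and 5.25, 5.42, 5.31 and 5.48 on the vehicle arrays, and rose by 0.53 ± 0.11 (limma adjusted p = 0.0434). The groups did not overlap, but the Cct5 call held in 0 of the 8 fits without 1 array, at adjusted p of 0.0675 to 0.127, and in 9 of the 14 other alternatives, not with the slide row as a block (0.0662) or a median shift. Of 8 tubulin cofactor genes, 0 passed (3 at an unadjusted p under 0.05, against 25.5% of all genes), with a median of 0.10. Tbcb, an alpha-tubulin folding cofactor, had a change of 0.32 ± 0.11 (limma adjusted p = 0.154), and Arl2, a small GTPase that works with cofactor D, one of -0.38 ± 0.09 (adjusted p = 0.0607), which was 0.10 with a median shift and passed with the filter on all 8 arrays (0.0404), trend and robust (0.0371) and array weights (0.0335). The Tbcb value was 0.81 with a median shift and 0.15 with normexp. Of 6 genes of tubulin mRNA autoregulation, Ttc5 among them, 0 passed (0 at an unadjusted p under 0.05), with a median of 0.14.

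Of 16 kept genes of enzymes that modify tubulin, 0 rose and 2 fell, with a median of -0.04. Downward calls made up 1.08% over all genes or transcripts. At an unadjusted p under 0.05 there were 5 of the 16 (31.2%), near the 25.5% of all genes with a symbol. Agbl5, a carboxypeptidase that removes glutamates from tubulin tails, had levels of -1.97 to -1.78 on furan arrays and -1.35 to -0.92 on vehicle arrays, and fell by 0.69 ± 0.11 (limma adjusted p = 0.0249). Atat1, the acetyltransferase of alpha-tubulin inside the microtubule, had 0.36 to 0.44 on furan arrays and 0.74 to 1.31 on vehicle arrays, and fell by 0.66 ± 0.13 (adjusted p = 0.0429). The Agbl5 call held in 1 of the 8 fits without 1 array, with adjusted p of up to 0.0842, and the Atat1 call in 0, at 0.0518 to 0.123. The Agbl5 call held in 7 of the 14 other alternatives, and its change was -0.42 by quantile normalization (limma adjusted p = 0.305), -0.32 with normexp (0.243), -0.39 in the authors' value table (0.107) and -0.20 with a median shift (0.775). The Atat1 call held in 10 of the 14, and its change was -0.17 with a median shift (0.815).

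Of 21 kept genes of microtubule dynamics and severing, 2 rose and 0 fell, with a median of 0.04. Upward calls made up 2.40% over all genes or transcripts. An unadjusted p under 0.05 was reached by 6 of the 21 (28.6%), near the 25.5% of all genes with a symbol. Stmn1, encoding stathmin, which binds free tubulin dimers, had levels of 2.25 to 2.85 on furan arrays and 1.18 to 1.88 on vehicle arrays, and rose by 1.12 ± 0.21 (limma adjusted p = 0.0355). Its change was 1.64 in slide row 1 and 0.60 in slide row 2. Mapre1, encoding the plus-end binding protein EB1, had 1.01 to 1.35 on furan arrays and 0.48 to 0.58 on vehicle arrays, and rose by 0.62 ± 0.10 (adjusted p = 0.0231). In the 8 fits without 1 array the Stmn1 call held in 1 and the Mapre1 call in 2, with adjusted p of up to 0.102 and 0.0810. Each held in 9 of the 14 other alternatives, and Mapre1 was at 0.39 as the mean of its probes (adjusted p = 0.0527), while a median shift gave an adjusted p of 0.466. Of 9 gamma-tubulin ring complex genes 0 passed (0 at an unadjusted p under 0.05), with a median of -0.01.

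**Figure D4:**
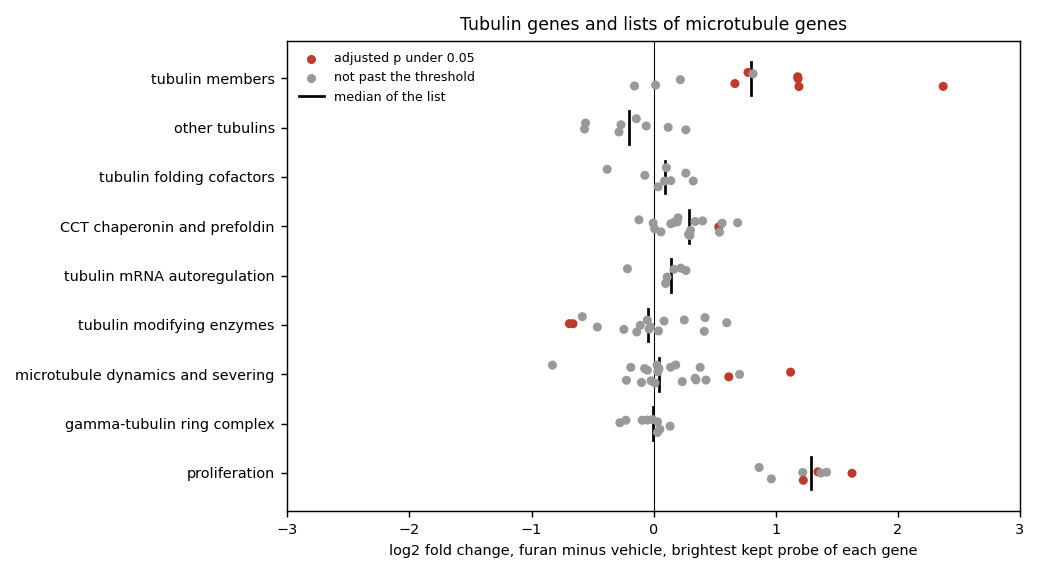
Log2 fold change, furan minus vehicle, of the brightest kept probe of each gene in 9 lists, with the median of each list as a bar and genes past an adjusted p of 0.05 in red. The tubulin members have a median of 0.79 and the proliferation list one of 1.29, while the medians of the other 7 lists lie between -0.20 and 0.29.

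Markers of dividing cells were read in the same livers. Of 8 kept proliferation genes of 10, 3 rose and 0 fell, with a median of 1.29 and changes of 0.86 to 1.63. By 1 probe per gene 2.40% of all genes or transcripts passed upward, and 7 of the 8 had an unadjusted p under 0.05, against 25.5% of all genes with a symbol. The 3 genes were the mitotic kinase gene Aurka at 1.63 ± 0.30 and the cyclin genes Ccnb2 at 1.35 ± 0.27 and Ccna2 at 1.23 ± 0.26 (limma adjusted p = 0.0341, 0.0418 and 0.0488). In the 8 fits without 1 array the Aurka call held in 1 and the Ccnb2 and Ccna2 calls in 0, at adjusted p of up to 0.0983, 0.117 and 0.128. In the 14 other alternatives the Aurka and Ccnb2 calls held in 8 each and the Ccna2 call in 7. The changes differed between the slide rows. That of Aurka was 2.31 in row 1 and 0.94 in row 2, that of Ccnb2 1.98 and 0.71, and that of Ccna2 1.81 and 0.65. Every other kept gene of this list also had a larger change in row 1 than in row 2. The log2 of the summed signal of the 8 genes was 2.69 to 3.69 on furan arrays and 1.52 to 2.52 on vehicle arrays. Cdk1 and Aurkb were not kept. The part of dividing cells in the tubulin changes was not tested.

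Summed marker signals of other liver cell types, given as log2, overlapped between the groups in each of 6 lists. Of 5 kept cholangiocyte genes of 6, 0 passed, and Cftr was not kept. Their log2 summed signal was 0.75 to 1.19 on furan arrays and 0.79 to 1.74 on vehicle arrays. Log2 summed signals of the 6 Kupffer cell genes were 6.67 to 7.15 with furan and 6.46 to 7.76 with vehicle. Each of these genes had its highest vehicle value on the array of replicate 4. Vsig4 was at 5.29 there, against 3.74 to 3.93 on the other vehicle arrays and 4.00 to 4.13 on furan arrays. Clec4f was at 5.55 there, against 4.66 to 5.21 on the other vehicle arrays and 4.64 to 5.20 on furan arrays. The 7 stellate cell and fibroblast genes had log2 summed signals of 2.70 to 3.03 with furan and 2.46 to 2.75 with vehicle. Those of the 8 leukocyte genes were 3.24 to 3.67 with furan and 3.14 to 3.66 with vehicle. The 4 mesothelium genes summed to -1.62 to -0.01 with furan and -2.94 to 0.31 with vehicle. The 6 sinusoidal endothelium genes summed to 6.10 to 6.40 with furan and 6.39 to 6.65 with vehicle, so that only the ends of the ranges met. In none of these 6 lists did a gene pass the threshold. At an unadjusted p under 0.05 there were 3 of 7 stellate cell and fibroblast genes, 2 of 6 sinusoidal endothelium genes, 1 of 8 leukocyte genes and 0 in the other 3 lists, against 25.5% of all genes with a symbol. Named after their values were seen, the endothelial genes Stab2, a scavenger receptor, and Pecam1, an adhesion molecule, were below all vehicle arrays on every furan array, at changes of -0.48 ± 0.13 and -0.39 ± 0.09 (limma adjusted p = 0.0794 and 0.0646). The collagen gene Col3a1 was above all vehicle arrays on every furan array, at 0.37 ± 0.12 (limma adjusted p = 0.141). So was the hepatocyte factor gene Hnf4a, at 0.31 ± 0.09 (limma adjusted p = 0.0994). Of all kept probes, 9.97% were free of overlap upward and 7.39% downward. Changes above 0 were seen in 4 of 7 stellate cell and fibroblast genes, 2 of 8 hepatocyte genes and 1 of 6 sinusoidal endothelium genes. Among those below 0 were Des, a stellate cell marker, at -0.50 and the hepatocyte marker Apoa1 at -0.20. The part of these cell types in the tubulin changes was not tested.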

How the data were processed

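Spot intensity was extracted by the authors with Agilent Feature Extraction 11.0.1.1, per the file headers, for design 028005 in 1 colour, and the processed intensity used here is the software's own background-corrected one. The authors also deposited log2 values in a table, with a normalization not given in the sources used here, and its columns correlate across probes with the log2 median intensity of the same array at 0.998 for vehicle replicate 2 and higher for each other array. Of 62976 spots, 3671 controls were dropped, as were the 128 to 315 outlier-marked spots per array; none was saturated (0 spots). Log2 intensities were expressed against the array's 75th percentile, and 33848 of 55681 probes were kept. Symbols came from RefSeq accessions through a table for GRCm38.p6, for 27235 of 28685 probes with an accession.

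Groups were compared per probe by the moderated test of limma (version 3.58.1, R 4.3.3; functions lmFit and eBayes), taken as 2-sided; p-values were adjusted by Benjamini-Hochberg across every kept probe. Nothing in the labels names a shared block, although they call the design a randomized block one. The series' design text calls the replicates biological, and the number of arrays limits the precision. The members and lists were chosen with earlier results of these data known. Named genes were every kept member probe, up to 4 genes past the threshold from each other list and up to 2 from a list without one (values are given for the other tubulins and the cofactors, counts alone for the rest), and the 5 profiles nearest to the member with the largest change. Alternatives were other scalings, normexp with an offset of 50, the authors' table, other filters, outlier-marked spots kept, gene-level values, trend and robust, array weights, slide row or column as a block, and each array left out. Those for genes outside the tubulins were added after the data were seen. The fit was tested on simulated data. Plots used matplotlib 3.10.9 in Python 3.11.15.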

Additional observations from a re-analysis of the deposited data

Results flagged for a closer look

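Among 44 groups of 4 values, the 12 probes and 10 shares in each of the 2 treatments, 5 held a value far from the other 3, where chance gives about 1 in 20. Tuba1c was at 7.12 on the array of furan replicate 42, against 7.45 to 7.50 on the other furan arrays. Tuba4a was at 6.03 on the array of vehicle replicate 4, against 5.62 to 5.69 on the other vehicle arrays. The Tubb2b share was 0.0627% on the array of furan replicate 42, against 0.0362% to 0.0384% on the others of its group. The Tubb4b share was 15.4% on the array of vehicle replicate 2, the array with the most spots above background, against 12.4% to 12.7% on the other vehicle arrays. The Tuba1b share was 26.8% on the array of vehicle replicate 3, against 23.8% to 24.2% on the others of its group.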

How the results depend on the processing

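The count of 7 tubulin probes higher with furan became 0 with the slide column as a block, 1 after centring arrays on their median, 3 with unscaled signals and 3 with dim probes kept, and it ranged from 3 to 7 over the 8 fits without 1 array. Over the other 10 alternatives it was 6 to 8, and 0 probes passed downward in any of them. With the median shift the median change of all kept probes was 0.37, against -0.12 with the 75th percentile, and Tubb2a was still past the threshold there, at 2.86. Over all kept probes limma called 765 higher and 361 lower, against 77 and 1 with the median shift, 188 and 25 for unscaled signals, 77 and 21 with dim probes kept, 1329 and 689 with the filter on all 8 arrays, 1727 and 706 with trend and robust, 1429 and 965 with array weights, 1290 and 604 in the authors' value table, 0 and 0 with the column block, and 115 to 645 and 39 to 354 without 1 array. The change of the Tubb2b probe A_51_P514256, -0.16 as reported, was 0.20 under quantile normalization, 0.33 with a median shift, 0.13 with normexp, 0.078 in the authors' value table and 0.26 as the mean of both Tubb2b probes. That of Tuba1a, 0.016 as reported, was -0.051 under quantile normalization, -0.0093 with normexp, and -0.018 to 0.087 over the fits without 1 array. That of Arl2 was 0.10 with a median shift. Each of the 7 probes past the threshold stayed above 0 in every alternative run. Within slide rows the change of Tubb2a was 2.67 in row 1 and 2.08 in row 2, and with the row as a block 7 probes passed. Replicate numbers do not match between the groups, so no fit paired by them; the slide column, with 1 array of each group, gave the paired fit. The cause of these differences was not tested.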
